A study of Mus musculus with 4 samples.

Results

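TRAJ18 is the joining segment of the invariant alpha chain of natural killer T (NKT) cells, where it is joined to TRAV11. The subject here is TRAJ18 joined to any other TRAV. Its members were chosen by segment name alone: high-confidence, full-length, productive TRA contigs named TRAJ18 in called cells, with TRAV11 contigs set apart. They were 531 of 13497 productive TRA contigs, in 522 of 11975 cells with a TRA. Counted once per library for each combination of TRAV, TRAJ and CDR3 nucleotides (a rearrangement), they were 321 of 8342. TRAV11 with TRAJ18 gave a further 25 contigs. T-cell receptors were read from single cells of pancreatic islets of 2 kinds of mice: NOD, an inbred strain with spontaneous autoimmune diabetes, and Tet2KO NOD, in which Tet2, an enzyme that oxidises methylcytosine, is deleted (Tet2-/-, bred from a B6 background to NOD for over 14 generations). Each genotype had 2 libraries, labelled set 1 and set 2, and each library pooled islets of 4 to 6 mice. An age of 10 to 13 weeks is stated in the series text, but the protocol has these weeks as time "post BTM", an abbreviation it leaves unexplained. NOD females are also named as bone marrow donors, and whether these islets came from transplanted mice was not settled here. Pools were the replicates, and the mice within a pool were not told apart. A p-value between genotypes is set against the spread between pools, as far as one was fitted. In the edgeR fits of TRAJ18 against other TRAJ next to none of that spread was fitted. In the fits of genotype differences in partners it was next to none for TRAV families and little for TRB names. The p-values of all these partner fits thus rest largely on counting error. The libraries, called NOD 1 and 2 and Tet2KO NOD 1 and 2 and listed in this order throughout, held 6835, 2889, 1957 and 1664 called cells, with 85137263 to 220516119 reads in contigs and a median of 5 or 6 UMIs (unique molecular identifiers) per TRA chain. Between 4 and 30 called barcodes were shared by each pair of libraries, none of them with the same TRA in both, and no such barcode carried a TRAJ18 member in both. The data are receptors only, so no member was checked against markers of a cell type.

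The alpha chain of a T-cell receptor is made by joining 1 TRAV to 1 TRAJ segment. Joining starts at the TRAJ segments nearest to the TRAV cluster and can be repeated on the same chromosome with TRAV further upstream and TRAJ further downstream, so late rounds bring distal TRAV and 3′ TRAJ together. The invariant NKT receptor, which recognises lipids held by CD1d, pairs a TRAV11-TRAJ18 alpha chain with a beta chain of V beta 8 (TRBV13), V beta 7 (TRBV29) or V beta 2 (TRBV1). With other TRAV, TRAJ18 is an ordinary joining segment of conventional T cells.

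The TRAJ18 segment lies at chr14:54200777-54200842 on the plus strand of GRCm38 (RefSeq annotation, GRCm38.p6), within the T-cell receptor alpha locus. Its germline sequence of 66 bases is shown because every CDR3 below is read against it. Capitals mark the 35 bases that fall inside the CDR3, and the rest is framework 4.
germline TRAJ18: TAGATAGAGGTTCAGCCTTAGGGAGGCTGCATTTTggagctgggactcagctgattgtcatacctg
The next 5 sequences are CDR3 alpha nucleotides, with capitals for the bases that equal the germline TRAJ18 end counted back from the 3′ end. The first is the form of the invariant NKT chain found in all 4 libraries, and the others are the alpha chains of the largest TRAJ18 clone of each library.
TRAV11, invariant NKT type: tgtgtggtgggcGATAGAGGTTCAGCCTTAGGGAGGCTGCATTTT
NOD 1, TRAV7D-3: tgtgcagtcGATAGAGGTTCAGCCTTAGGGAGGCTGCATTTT
NOD 2, TRAV6D-4: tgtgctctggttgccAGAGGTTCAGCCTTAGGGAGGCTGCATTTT
Tet2KO NOD 1, TRAV14-1: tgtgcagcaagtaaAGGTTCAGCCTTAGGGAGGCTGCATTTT
Tet2KO NOD 2, TRAV5N-4: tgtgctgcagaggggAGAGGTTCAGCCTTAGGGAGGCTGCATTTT
All 5 share the 3′ part of the segment and differ in how far the match reaches towards its 5′ end and in what precedes it. A matching base can also stem from the TRAV end or be an added base, so the match is not a measure of trimming.

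TRAJ18 without TRAV11 made up 4.07% of the TRA rearrangements of NOD 1 (169 of 4154, 95% Wilson interval 3.51 to 4.71), 3.49% of NOD 2 (70 of 2004, 2.77 to 4.39), 4.77% of Tet2KO NOD 1 (50 of 1048, 3.64 to 6.23) and 2.82% of Tet2KO NOD 2 (32 of 1136, 2.00 to 3.95). The Tet2KO NOD pools held the highest and the lowest share, on either side of both NOD pools. NOD pools had a mean of 3.78% ± 0.407 and Tet2KO NOD pools one of 3.79% ± 1.38 (SD, n = 2 each, exact two-sided permutation p = 1, smallest possible 0.333). By edgeR's quasi-likelihood test the log2 fold change, Tet2KO NOD over NOD, was -0.03 (SE 0.23, adjusted p = 0.976 over 96 TRAV and TRAJ names). None of the 96 names passed an adjusted p of 0.05 (0%), 2 had an unadjusted p below 0.05, and DESeq2 also called 0. The value rested on single libraries: leaving out Tet2KO NOD 1 gave -0.45 and leaving out Tet2KO NOD 2 gave 0.31, neither past the threshold. As a share of cells with a TRA, the members made up 4.49%, 4.10%, 5.76% and 2.68% in the same order of libraries.

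Among the 43 TRAJ names, TRAJ18 without TRAV11 ranked 6 by mean share, at 3.79% ± 0.832 (SD over 4 libraries). TRAJ45 at 3.88% ± 0.701 stood just above it and TRAJ26 at 3.56% ± 0.196 just below, and their libraries overlapped those of TRAJ18, as did those of TRAJ31, the next nearest. TRAJ23 ranked first at 4.92% ± 0.459. The nearest of the 43 names on either side of TRAJ18 on the chromosome were used less. TRAJ17 reached 1.96% ± 0.340 and TRAJ21 1.95% ± 0.515, and in each of the 4 libraries both lay below TRAJ18. Of the 6 nearest names counted here (TRAJ15, TRAJ16, TRAJ17, TRAJ21, TRAJ22, TRAJ23), 0 passed the genotype test, with a median log2 fold change of -0.10 against -0.03 over all 96 names.

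**Figure D1:**
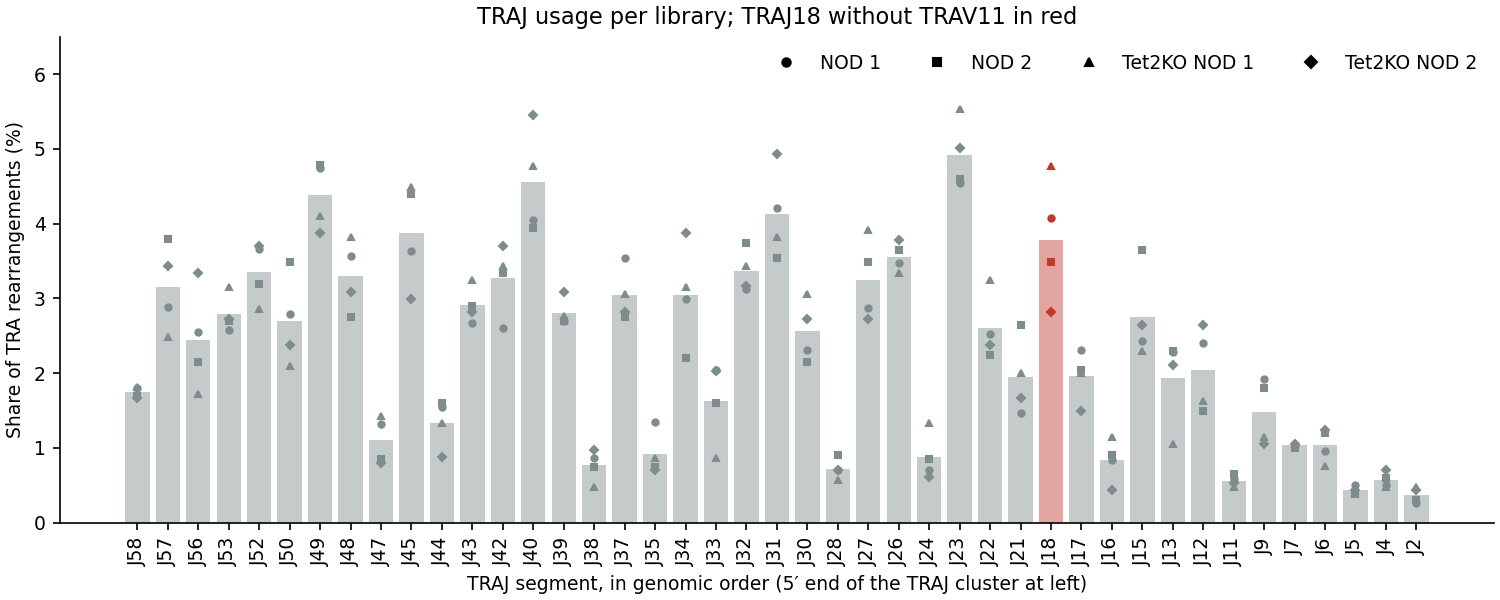
Share of TRA rearrangements (percent) for each of 43 TRAJ segments in genomic order; bars are means of 4 libraries and symbols are the libraries. TRAJ18 without TRAV11 (red) ranked 6 at 3.79%, above the nearest segments shown, TRAJ17 (1.96%) and TRAJ21 (1.95%), and its Tet2KO NOD libraries were the highest and the lowest.

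TRAJ18 was joined to 51 TRAV names of 16 families. The families with the highest mean share among its rearrangements were TRAV6 (18.1% ± 3.04, SD over 4 libraries), TRAV7 (16.3% ± 2.53), TRAV5 (12.3% ± 4.45), TRAV13 (9.49% ± 3.38), TRAV10 (7.13% ± 2.59) and TRAV12 (6.53% ± 4.02). With other TRAJ the same families had 15.8% ± 0.408, 12.0% ± 0.421, 11.04% ± 0.848, 8.59% ± 0.748, 5.05% ± 0.304 and 5.86% ± 1.11. None of 16 families tested passed an adjusted p of 0.05 in edgeR with the library as a block (0%), 1 had an unadjusted p below 0.05, and DESeq2 called 0. The test of a difference between genotypes in these partners called 0 of 16 as well (0%), with 0 unadjusted p below 0.05 and 0 by DESeq2. TRAV7 was the more frequent with TRAJ18 in 4 of 4 libraries, at 13.02%, 18.6%, 18% and 15.6% against 11.6%, 12.4%, 11.8% and 12.4% with other TRAJ, but its log2 fold change of 0.36 (SE 0.17) had an adjusted p of 0.366 in edgeR. TRAV10 (log2 fold change 0.67, SE 0.40) had the same adjusted p of 0.366 and was lower with TRAJ18 in Tet2KO NOD 1. TRAV9 lay lower with TRAJ18, at 4.83% ± 3.26 against 8.51% ± 0.565, with 0 of 50 in Tet2KO NOD 1, which allows up to 6% (adjusted p = 0.366 in edgeR).

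Names of single TRAV segments gave 1 call: TRAV7D-2 was more frequent with TRAJ18, in 12 of 321 rearrangements against 84 of 7998 (log2 fold change 1.81, SE 0.52, edgeR adjusted p = 0.0344 over 48 names). TRAV7D-2 is one of several near-identical copies in the duplicated part of the TRAV cluster, so its name is uncertain, and the TRAV7 family it belongs to did not pass. TRAV7D-2 and TRAV2 are named after their values were seen. TRAV2, from the distal end of the cluster, fell under the minimum of 50 rearrangements for the test. It was found in 8 of 321 TRAJ18 rearrangements (2.49%) against 38 of 7998 with other TRAJ (0.475%), a ratio of 5.25 with a counting interval of 2.11 to 11.4. The TRAV2 share was the higher with TRAJ18 in 4 of 4 libraries, at 2.37%, 1.43%, 4.00% and 3.12% against 0.327%, 0.571%, 0.704% and 0.637%. Without the minimum, TRAV2 passed (log2 fold change 2.37, edgeR adjusted p = 0.00905). These 8 were 6 distinct rearrangements, since 1 was found in 3 libraries and counted in each. TRAV1, the other distal family, was in 2 of 321 against 69 of 7998, a ratio of 0.722 with a counting interval of 0.0858 to 2.71.

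**Figure D2:**
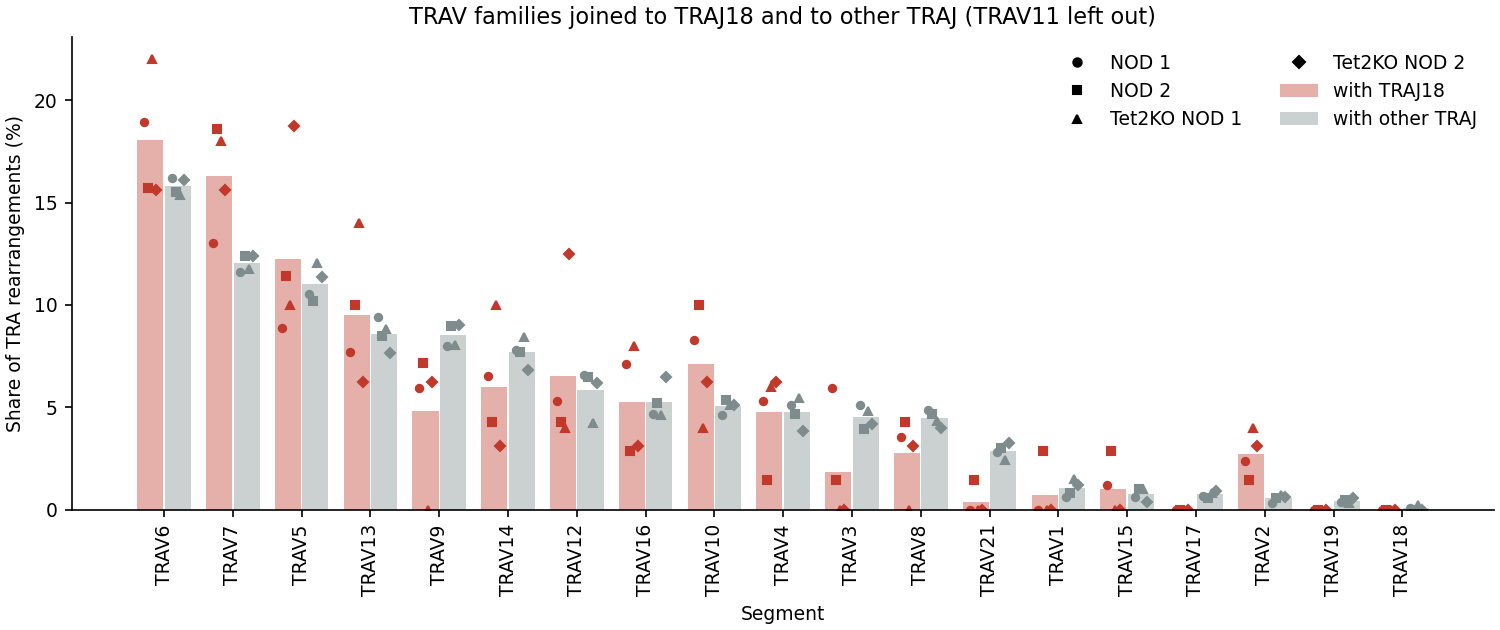
Share (percent) of each TRAV family among rearrangements with TRAJ18 (red) and with other TRAJ (grey), TRAV11 left out; bars are means of 4 libraries and symbols are the libraries. The red symbols scatter widely around the grey ones for most families, while TRAV21 and TRAV17 sit at or near 0 with TRAJ18 and TRAV2 lies above its grey symbols in every library.

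TRAV from the proximal end of the cluster were rare with TRAJ18. TRAV17, TRAV18, TRAV19 and TRAV21, the TRAV nearest to the TRAJ segments, made up 1 of 321 TRAJ18 rearrangements (0.312%, Wilson interval 0.0550 to 1.74) and 322 of 7998 with other TRAJ (4.03%, 3.62 to 4.48). By library they were 0 of 169, 1 of 70, 0 of 50 and 0 of 32 with TRAJ18, where counts of 0 allow up to 1.78%, 6% and 9.38%. The other TRAJ had 3.90%, 4.05%, 3.72% and 4.73% in the same libraries, so the TRAJ18 value lay lower in 4 of 4. In NOD 1 alone was the limit below the share of other TRAJ: in NOD 2 the Wilson interval (0.253 to 7.66) covered it, and in both Tet2KO NOD pools a difference was not detectable at this depth. The single member was a TRAV21 rearrangement of NOD 2. Of the 4 families, 2 were tested one by one and 0 passed: TRAV21 was at 1 of 321 against 229 of 7998, a ratio of 0.109 with a counting interval of 0.00274 to 0.612 (unadjusted p = 0.0197, adjusted p = 0.315 in edgeR). Without NOD 2, TRAV21 with TRAJ18 was at 0 and passed with an adjusted p of 0.0134 in edgeR. TRAV17, at 0 of 321 (up to 0.935%) against 56 of 7998 (0.70%), has no measured fold.

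The same low share was seen over a stretch of the TRAJ cluster rather than at TRAJ18 alone. The 12 TRAJ names that lie 3′ of TRAJ18 joined a proximal TRAV in 5 of 1293 rearrangements (0.387%), and the 30 names 5′ of it in 317 of 6705 (4.73%). TRAJ17, 0.998 kb downstream, had 0.575%, TRAJ21 had 0 of 154 (Wilson upper bound 2.43%) and TRAJ23, at -4.70 kb, 1.01%, where negative distances lie upstream. TRAJ58, at -43.50 kb, reached 23.8%. Across the 43 TRAJ names the share fell with distance towards the 3′ end (Pearson r = -0.75, Spearman rho = -0.85, a description over segments read in the same libraries). The TRAV family profiles most like that of TRAJ18 belonged to TRAJ31 (Pearson r = 0.95 over mean family shares), TRAJ26 (0.94) and TRAJ43 (0.92), of TRAJ with at least 100 rearrangements. The least like was that of TRAJ58 (0.36), followed by TRAJ57 (0.48), TRAJ21 (0.49) and TRAJ56 (0.50). TRAJ21 is the nearest name counted upstream of TRAJ18, so likeness did not simply follow distance. TRAJ17, on the other side, had 0.87. Family frequency is common to all TRAJ, and it raises each of these values.

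**Figure D3:**
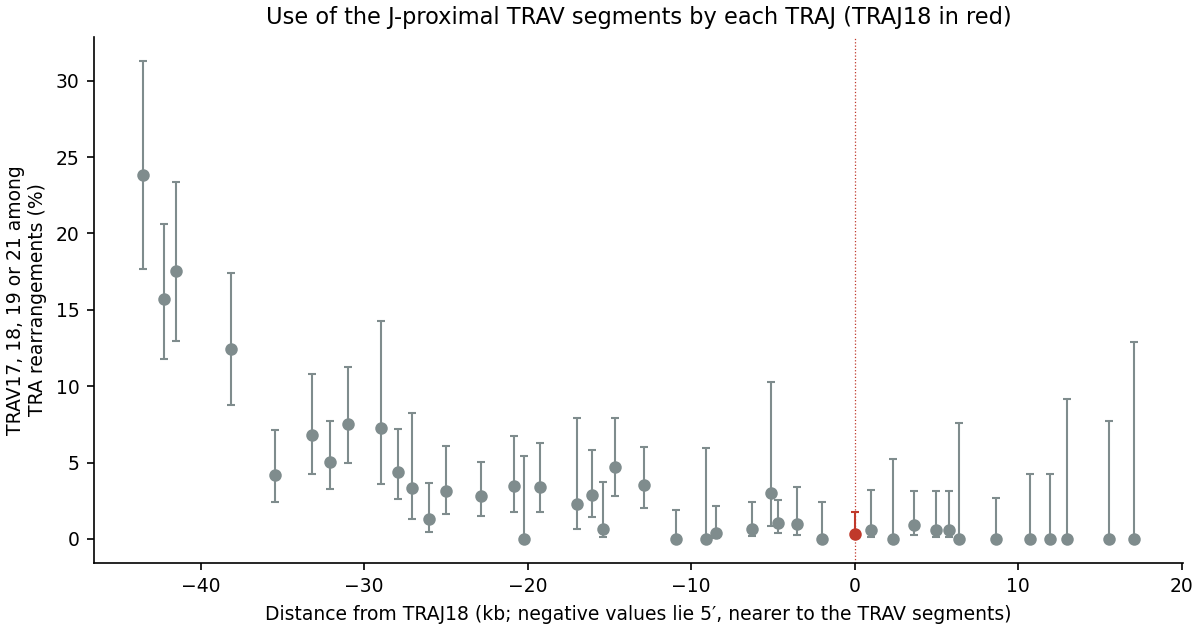
Share (percent) of TRAV17, TRAV18, TRAV19 and TRAV21 among the rearrangements of each TRAJ against its distance from TRAJ18 in kb; points pool 4 libraries and bars are 95% Wilson intervals. TRAJ18 (red, 0.312%) lies in the flat low part of the plot, and the highest values, up to 23.8% for TRAJ58, lie at the 5′ end on the left.

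The CDR3 alpha of TRAJ18 rearrangements was longer than that of other TRAJ in 4 of 4 libraries. Its mean length was 14.7, 14.7, 14.7 and 14.9 residues against 13.6 in each library for other TRAJ, a difference of 1.14 residues (exact two-sided sign-flip permutation p = 0.125, the smallest 4 libraries can give, 0.25 adjusted over 10 measures). The genotypes differed by 0.082 residues in this mean (exact permutation p = 0.667). Lengths of 14, 15 and 16 residues held 101, 105 and 65 of the 321 rearrangements. A length of 13 residues, which held 28.6% of other rearrangements, held 9.35%.

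The match to the germline TRAJ18 end, called bases kept, had a mean length of 30.3 of 35 in both NOD pools and of 30.1 and 31.0 in the Tet2KO NOD pools. The genotype means were 30.3 ± 0.037 and 30.5 ± 0.651 (SD, n = 2 each, exact permutation p = 1). The most frequent number was 30 bases (83 rearrangements, 25.9%), followed by 29 (57) and 32 (39). The full 35 bases were kept in 13 rearrangements (4.05%), and the shortest match was 21. In protein terms, 320 of 321 CDR3 kept the last 8 germline residues, 312 (97.2%) the last 9, 231 (72.0%) the last 10 and 65 (20.2%) the last 11. A mean of 3.41 ± 0.074 bases in NOD and 3.32 ± 0.825 in Tet2KO NOD matched neither the germline V end nor the J end. NOD alleles can differ from the C57BL/6 reference, and a differing V base would be counted among these.

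**Figure D4:**
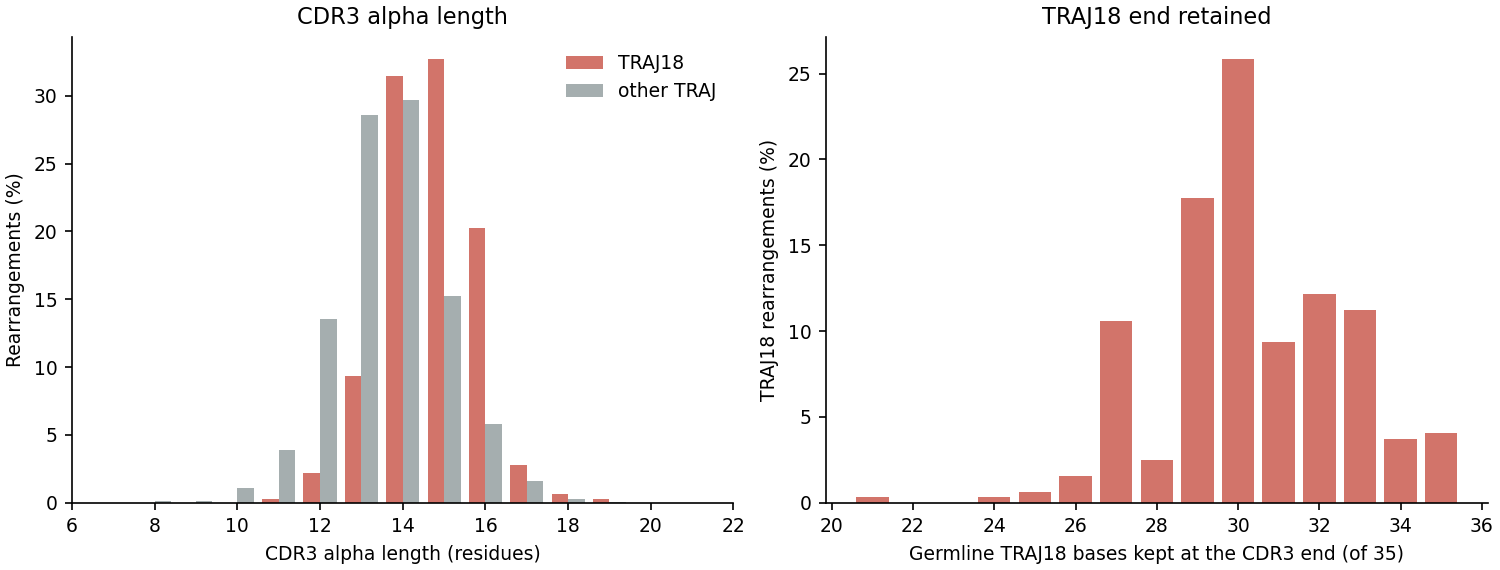
Left, share (percent) of rearrangements by CDR3 alpha length in residues for TRAJ18 without TRAV11 (red) and other TRAJ (grey); right, share of TRAJ18 rearrangements by number of germline TRAJ18 bases kept at the CDR3 end. Both panels pool 4 libraries; TRAJ18 is most frequent at 15 residues (32.7%) and at 30 bases (25.9%).

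In cells with exactly 1 TRB, TRAJ18 without TRAV11 formed 311 distinct pairs in 481 cells, with 21 TRBV names. TRBV19 (V beta 6) had the highest mean share at 14.96% ± 9.64, then TRBV5 (10.7% ± 3.45), TRBV13-1 (9.29% ± 2.52), the joined name TRBV12-2+TRBV13-2 (9.03% ± 2.17), TRBV10 (7.40% ± 4.81) and TRBV31 (5.77% ± 3.44). With other TRAJ these had 8.52% ± 1.09, 10.3% ± 0.250, 8.31% ± 0.509, 11.2% ± 1.33, 2.62% ± 0.411 and 6.20% ± 0.409. None of 32 TRBV and TRBJ names passed an adjusted p of 0.05 in edgeR with the library as a block (0%). Unadjusted p fell below 0.05 for 6 of the 32, and DESeq2 called 0. The test of a genotype difference called 0 of 32 (0%), with 0 unadjusted p below 0.05 and 0 by DESeq2.

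TRBV19 was at 13.3%, 12.1%, 5.88% and 28.6% of pairs with TRAJ18 and at 7.90%, 9.96%, 7.48% and 8.72% with other TRAJ. It was the higher with TRAJ18 in 3 of 4 libraries, and Tet2KO NOD 2, with 8 of 28 pairs, held the highest value (log2 fold change 0.66, SE 0.22, adjusted p = 0.15 in edgeR). TRBV10 stood at 4.82%, 12.1%, 1.96% and 10.7% against 2.54%, 2.37%, 2.35% and 3.22% (log2 fold change 1.36, SE 0.51, adjusted p = 0.15 in edgeR). Among TRBJ, the highest mean shares were those of TRBJ2-7 (17.6% ± 4.42), TRBJ2-3 (16.8% ± 10.3), TRBJ2-5 (11.5% ± 1.51) and TRBJ1-4 (11.2% ± 5.05). TRBJ1-4 was higher than with other TRAJ (7.63% ± 0.536) without passing the test (log2 fold change 0.60, SE 0.24, adjusted p = 0.203 in edgeR).

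The beta chains known from invariant NKT receptors (TRBV13 family, TRBV29 and TRBV1 as one list) were in 111 of 311 TRAJ18 pairs without TRAV11 (35.7%) and 2950 of 7591 pairs with other TRAJ (38.9%). By library the TRAJ18 pairs held 38.6%, 36.4%, 33.3% and 21.4% against 39.7%, 37.1%, 38.9% and 38.8%. The TRAJ18 share lay below that of other TRAJ in 4 of 4 libraries, by under 2 percentage points in both NOD pools, and the difference was not tested.

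**Figure D5:**
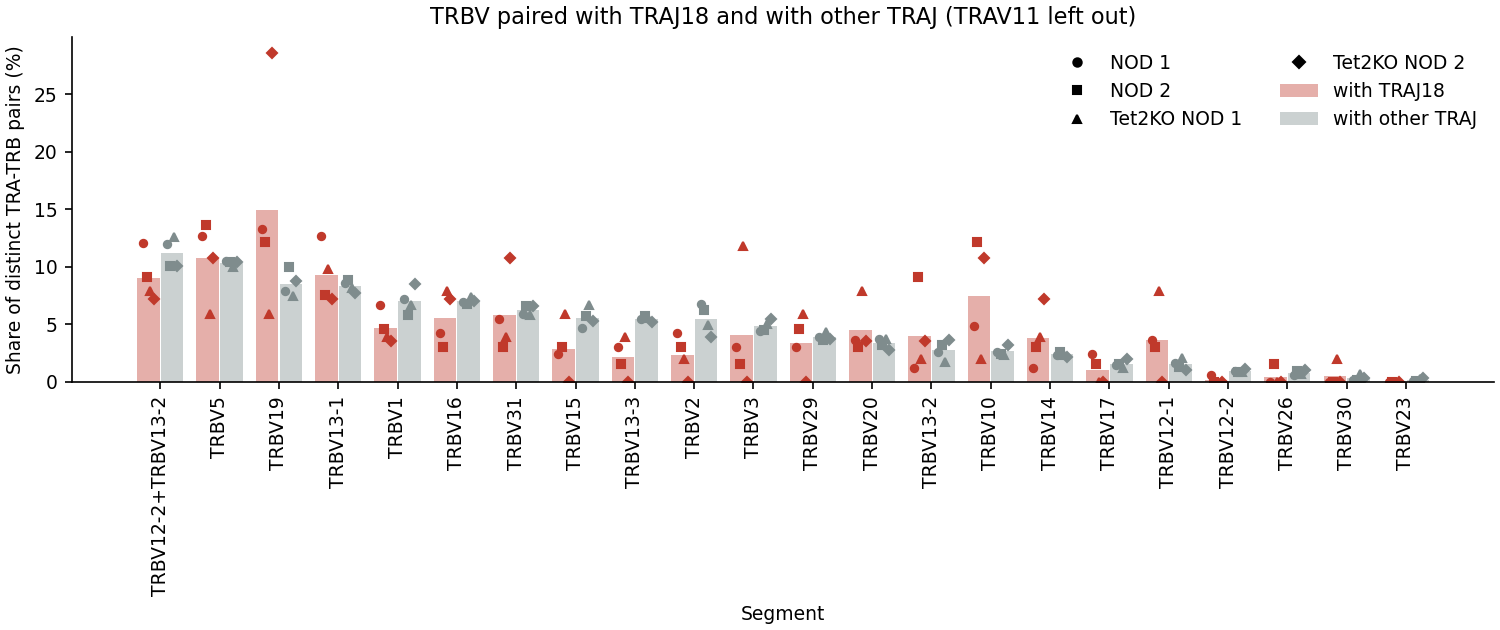
Share (percent) of each TRBV name among distinct TRA-TRB pairs with TRAJ18 (red) and with other TRAJ (grey), TRAV11 left out; bars are means of 4 libraries and symbols are the libraries. TRBV19 and TRBV10 have the largest rise in mean share (14.96% against 8.52%, 7.40% against 2.62%), and the TRAJ18 symbols spread far more than the grey ones.

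A group of closely similar receptors was seen among the TRAV16 pairs and is described with no test, since it was picked after its values were seen. Of 17 TRAV16-TRAJ18 pairs, 7 carried TRBV12-1 (41.2%, Wilson interval 21.6 to 64.0), against 13 of 425 TRAV16 pairs with other TRAJ (3.06%), 5 of 294 TRAJ18 pairs with other TRAV (1.70%) and 102 of 7166 remaining pairs (1.42%). All 7 were named TRAV16N, had a CDR3 alpha of 16 residues and a CDR3 beta of 14 residues, and held the residues arginine, leucine, glycine and valine (RLGV) at the same place in the beta chain. They came from NOD 1 (3 of 11 TRAV16-TRAJ18 pairs, 6 cells), NOD 2 (1 of 2, 2 cells) and Tet2KO NOD 1 (3 of 4, 12 cells). Tet2KO NOD 2 had 0 TRAV16-TRAJ18 pairs, so the group could not be seen there. Their sequences are given because receptors with the same residues were coded by different bases. In each alpha chain, capitals mark the germline TRAJ18 end.
NOD 1 pair 1, alpha: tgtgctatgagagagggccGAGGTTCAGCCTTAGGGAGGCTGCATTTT
NOD 1 pair 2, alpha: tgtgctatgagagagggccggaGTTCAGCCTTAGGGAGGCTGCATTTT
NOD 1 pair 3, alpha: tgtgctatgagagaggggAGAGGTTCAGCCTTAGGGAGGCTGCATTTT
NOD 2 pair 4, alpha: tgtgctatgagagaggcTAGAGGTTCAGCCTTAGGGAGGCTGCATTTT
Tet2KO NOD 1 pair 5, alpha: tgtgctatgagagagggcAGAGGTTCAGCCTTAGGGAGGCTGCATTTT
Tet2KO NOD 1 pair 6, alpha: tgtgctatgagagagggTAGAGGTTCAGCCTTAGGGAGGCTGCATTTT
Tet2KO NOD 1 pair 7, alpha: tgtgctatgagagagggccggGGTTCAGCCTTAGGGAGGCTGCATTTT
In each beta chain of the same pairs, capitals mark the 12 bases that code for RLGV.
NOD 1 pair 1, beta: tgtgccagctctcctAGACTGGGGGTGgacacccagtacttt
NOD 1 pair 2, beta: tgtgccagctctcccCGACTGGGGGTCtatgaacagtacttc
NOD 1 pair 3, beta: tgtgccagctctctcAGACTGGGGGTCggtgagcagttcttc
NOD 2 pair 4, beta: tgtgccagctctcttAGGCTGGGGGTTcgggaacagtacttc
Tet2KO NOD 1 pair 5, beta: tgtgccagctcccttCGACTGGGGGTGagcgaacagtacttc
Tet2KO NOD 1 pair 6, beta: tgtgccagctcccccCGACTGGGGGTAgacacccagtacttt
Tet2KO NOD 1 pair 7, beta: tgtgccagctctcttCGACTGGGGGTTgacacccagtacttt
The 7 alpha sequences were all distinct, as were the 7 beta sequences, so the 7 were separate rearrangements of both chains. Translated, 5 of the 7 alpha chains were identical, and the beta chains of pairs 1 and 6 were identical. The alpha sequence of pair 6 was also in 1 cell of NOD 1, outside these pairs. RLGV was searched as these 4 residues anywhere in CDR3 beta and occurred in 12 of all 7902 pairs (0.152%). Outside the 7, it was in 4 of 7476 pairs of other TRAJ with other TRBV. It was in 0 of 13 TRAV16 pairs of other TRAJ with TRBV12-1 (which allows up to 23.1%). TRAJ18 pairs held it in 0 of 5 with other TRAV and TRBV12-1 (up to 60%) and in 0 of 299 with other TRBV (up to 1.00%). Of 102 pairs of other TRAV and TRAJ with TRBV12-1, 1 held it. That receptor used TRAV6D-6 and TRAJ34, and its CDR3 beta residues were those of pairs 1 and 6. Of the 10 TRAV16-TRAJ18 pairs without TRBV12-1, 3 had an alpha CDR3 of 16 residues.

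TRAV10-TRAJ18 with TRBV19 was a second such group, likewise picked after its values were seen and given with no test. TRBV19 was in 9 of 24 TRAV10-TRAJ18 pairs (37.5%, Wilson interval 21.2 to 57.3), against 43 of 381 TRAV10 pairs with other TRAJ (11.3%) and 32 of 287 TRAJ18 pairs with other TRAV (11.1%). By library it was in 6 of 13, 1 of 7, 0 of 2 and 2 of 2 pairs, so NOD 1 supplied most of them. The 9 pairs held 30 cells. In 6 of the 9 the alpha chain was 13 residues long and opened with cysteine, alanine, alanine or glycine, and glycine, followed by the last 9 germline residues. Exactly this form was found in 0 of 15 TRAV10-TRAJ18 pairs with other TRBV (up to 20%) and in 2 of 287 pairs of other TRAV with TRAJ18. The 6 alpha chains are shown with the germline TRAJ18 end in capitals.
NOD 1 pair 1, alpha: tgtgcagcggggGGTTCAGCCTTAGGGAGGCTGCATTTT
NOD 1 pair 2, alpha: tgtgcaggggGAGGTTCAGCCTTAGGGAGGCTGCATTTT
NOD 1 pair 3, alpha: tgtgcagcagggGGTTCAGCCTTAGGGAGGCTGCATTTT
NOD 1 pair 6, alpha: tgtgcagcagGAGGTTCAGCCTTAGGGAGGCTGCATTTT
NOD 2 pair 7, alpha: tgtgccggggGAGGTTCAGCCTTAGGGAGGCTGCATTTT
Tet2KO NOD 2 pair 8, alpha: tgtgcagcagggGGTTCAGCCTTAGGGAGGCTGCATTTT
The TRAV10D alpha chain of pair 3 in NOD 1 and of pair 8 in Tet2KO NOD 2 was the same to the base. Their beta chains differed, and are given in lower case as they carry no TRAJ18.
NOD 1 pair 3, beta: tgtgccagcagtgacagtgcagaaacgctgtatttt
Tet2KO NOD 2 pair 8, beta: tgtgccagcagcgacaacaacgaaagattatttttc
The beta CDR3 of pair 3 was also that of pair 7 in NOD 2, where the alpha chain was another TRAV10D rearrangement.
NOD 2 pair 7, beta: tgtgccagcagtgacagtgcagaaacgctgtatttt

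Clone sizes were read from the same pairs. Pairs with 2 or more cells made up 16.9% (28 of 166), 19.7% (13 of 66), 25.5% (13 of 51) and 14.3% (4 of 28) of all TRAJ18 pairs, in the order of libraries above, against 13.5%, 13.0%, 18.4% and 15.4% of the pairs of other TRAJ. The share was the higher with TRAJ18 in 3 of 4 libraries, with Tet2KO NOD 2 the exception, and the mean difference was 4.01 percentage points (exact sign-flip permutation p = 0.25, 0.417 adjusted over 10 measures). The exception depended on the definition of a clone. In Tet2KO NOD 2 the TRAJ18 share was above that of other TRAJ by TRA alone (6 of 32, 18.75%, against 17.5%). So it was with 1 TRA per cell (4 of 25, 16%, against 14.8%) and with cells of over 1 TRB kept (8 of 36, 22.2%, against 15.1%). The 44 TRAJ18 chains of this library lay in 40 cells. By TRA alone a cell counts once for each TRAJ18 chain, and with cells of over 1 TRB kept once for each pair. The same few cells can thus supply several of these counts, which was not examined. The TRAJ18 share of Tet2KO NOD 2 lay further below other TRAJ with the barcodes that libraries share left out (10.7% against 15.5%) and at 3 or more cells (3.57% against 8.15%). At 3 or more cells Tet2KO NOD 1 was also the lower (9.80% against 9.94%), and the mean difference was 0.866 percentage points. NOD pools averaged 18.3% ± 2.00 and Tet2KO NOD pools 19.9% ± 7.92 (SD, n = 2 each, exact permutation p = 1), and this order turned without Tet2KO NOD 1 (-4.00 percentage points) and with the barcodes that libraries share left out (-0.442). By cells, each counted once in every pair it formed, such pairs held 45.2%, 48.5%, 61.2% and 29.4% with TRAJ18. With other TRAJ they held 45.4%, 41.0%, 54.2% and 40.6%. A count of 16 TRAJ18 pairs reached 5 or more cells, 10 of 166 in NOD 1, 2 of 66 in NOD 2, 4 of 51 in Tet2KO NOD 1 and 0 of 28 in Tet2KO NOD 2. With other TRAJ these were 133 of 3783, 44 of 1817, 49 of 936 and 36 of 1055, and the difference was not tested.

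The largest TRAJ18 clone, in Tet2KO NOD 1, held 21 cells, which was 21.4% of the paired TRAJ18 cells of that library, and joined TRAV14-1 to TRBV15 and TRBJ1-2. NOD 2 had a clone of 13 cells (12.7%) with TRAV6D-4 and TRBV10. In NOD 1 the largest held 11 cells (4.44%), with TRAV7D-3 and TRBV5, and in Tet2KO NOD 2 it held 4 cells, with TRAV5N-4 and TRBV12-2+TRBV13-2. The alpha chains of these 4 are printed above. They shared neither a TRAV family nor a TRBV name. Next in size came, in NOD 1, 2 clones of 8 cells (TRAV10D with TRBV19, TRAV7D-3 with TRBV13-1) and 3 of 7 cells (TRAV7D-3 with TRBV13-1, TRAV10D with TRBV19, TRAV13-1 with TRBV13-1), the second of which carried another TRA in each of its 7 cells, and in Tet2KO NOD 1 a clone of 7 cells with TRAV2. Thus 3 of the 6 largest clones of NOD 1 used TRAV7D-3. The largest clones of other TRAJ held 136, 53, 44 and 22 cells, among 3783, 1817, 936 and 1055 pairs. A maximum tends to rise with the number of pairs, so these are not on a par with TRAJ18. Mean cells per pair were 1.52, 1.56, 1.92 and 1.21 with TRAJ18 and 1.58, 1.47, 1.78 and 1.42 with other TRAJ.

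Sharing between pools was counted on rearrangements and on translated CDR3. Of 307 distinct TRAJ18 rearrangements, 13 (4.23%) were found in more than 1 library, 12 in 2 and 1 in 3, against 2.84% of 7746 rearrangements of other TRAJ. The rearrangement of 3 libraries used TRAV2 and was found in 2 cells of NOD 1 and 1 cell each of Tet2KO NOD 1 and Tet2KO NOD 2. Its CDR3 matches 33 germline TRAJ18 bases.
TRAV2, 3 libraries: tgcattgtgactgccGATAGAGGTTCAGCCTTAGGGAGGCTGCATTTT
The other 12 used TRAV10D (2), TRAV4-3 (2), TRAV13-1, TRAV13-4-DV7, TRAV13N-2, TRAV14N-1, TRAV16N, TRAV5-1, TRAV6-1 and TRAV7D-3. The TRAV7D-3 one was in 11 cells of NOD 1, 8 of them the clone with TRBV13-1, and in 2 cells of Tet2KO NOD 1. It codes the same residues as the largest clone of NOD 1 with other bases. Of the 13, the number of bases in neither germline end ran from 0 to 7. Whole TRA-TRB pairs were shared 2 times, TRAV5-1 with TRBV13-1 between both NOD pools and TRAV6-1 with TRBV20 between NOD 1 and Tet2KO NOD 1, with 1 cell in each library.

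Of 235 distinct TRAJ18 CDR3 in residues, 36 (15.3%) were in more than 1 library, against 10.3% of 6648 for other TRAJ. A single one was in all 4 libraries, in 7 cells and with 5 TRAV names, and it was coded by 3 nucleotide sequences.
TRAV10D, TRAV14-3 and TRAV7D-2, 4 cells: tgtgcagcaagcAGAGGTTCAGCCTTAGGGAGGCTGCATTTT
TRAV10D and TRAV14-1, 2 cells: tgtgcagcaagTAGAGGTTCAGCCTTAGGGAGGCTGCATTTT
TRAV5-4, 1 cell: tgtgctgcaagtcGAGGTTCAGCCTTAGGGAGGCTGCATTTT
These match 30, 31 and 29 germline J bases. A further 5 CDR3 were in 3 libraries, and that of these TRAV7D-3 chains held 32 cells, 26 of them in NOD 1, with TRAV7D-3 or TRAV3-3 and in 4 nucleotide forms. The numbers of cells sampled per library differ, so these shares are not rates of sharing.

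The TRAV11-TRAJ18 set, held apart, was small: 11, 5, 4 and 5 chains by library, in 0.180%, 0.188%, 0.233% and 0.335% of cells with a TRA. All 25 chains had the same CDR3 residues, 15 in number, coded by 4 nucleotide sequences carried by 10, 10, 4 and 1 cells. As a share of rearrangements the NOD pools had a mean of 0.0860% ± 0.0195 and the Tet2KO NOD pools 0.271% ± 0.114 (SD, n = 2 each, exact permutation p = 0.333, the smallest possible), on 2 to 4 rearrangements per library. With 4 sequences among all chains, that count can hardly grow with library size, while the totals do (4154, 2004, 1048 and 1136 rearrangements). The share by rearrangements can thus be higher in the smaller Tet2KO NOD libraries from their size alone. The other variants differ from the first, printed above, in 1 base at the junction of TRAV11 and TRAJ18.
variant 2: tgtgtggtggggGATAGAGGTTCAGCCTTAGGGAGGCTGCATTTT
variant 3: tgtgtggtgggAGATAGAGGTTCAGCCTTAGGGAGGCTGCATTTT
variant 4: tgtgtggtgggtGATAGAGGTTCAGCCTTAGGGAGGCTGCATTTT
Of the 24 cells with 1 TRB, 9 carried TRBV12-2+TRBV13-2, 9 TRBV29, 4 TRBV13-1, 1 TRBV13-2 and 1 TRBV13-3, so all 24 had names of V beta 8 or V beta 7 and 0 used TRBV1 (up to 12.5%). Each of these 24 cells had its own pair, with no clone of 2 cells. Outside TRAV11, the invariant CDR3 was found in 0 of 321 TRAJ18 rearrangements (up to 0.935%), although 105 of them had the same length of 15 residues and 9 ended in its last 12 residues. TRAV11 was joined to other TRAJ in 14 chains.

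TRAJ18 contigs also differed somewhat from other TRA contigs in productive share and UMIs. Of full-length TRAJ18 contigs without TRAV11 in called cells, 91.1%, 86.6%, 91.7% and 83.0% were productive, against 81.4%, 79.6%, 80.5% and 80.4% with other TRAJ (4 of 4 higher, mean difference 7.61 percentage points, exact sign-flip permutation p = 0.125, 0.25 adjusted over 10 measures). Counted over distinct rearrangements the difference was 9.09 percentage points, again in 4 of 4 libraries (p = 0.125, exact). The median chain had 6, 8, 7 and 7 UMIs against 5, 6, 5 and 6 for other TRAJ (p = 0.125, exact). The cause of these differences, and their part in the counts above, was not tested. Chains in cells with 2 or more TRA made up 21.9%, 20%, 18.2% and 43.2% with TRAJ18, against 23.2%, 23.9%, 19.6% and 20.9%. Tet2KO NOD 2 alone stood above its other chains, with 19 of 44 TRAJ18 chains in such cells and 20.5% in cells with over 1 TRB, against 5.24% of its other chains. Its 44 TRAJ18 chains lay in 40 cells, so some cells held more than 1 of them and were counted more than once. Whether these cells belonged to few clones was not examined. Without Tet2KO NOD 2 the mean difference from other TRAJ in chains of cells with 2 or more TRA was -2.19 percentage points, where it was 3.94 with all 4. Doublets were not called. Cells with over 1 TRB entered no pair, but shares, TRAV partners and CDR3 counts kept them, and cells with 2 or more TRA were kept in all. Without cells of over 1 TRB the genotype log2 fold change of TRAJ18 was -0.06 (adjusted p = 0.993 in edgeR).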

How the data were processed

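Receptor contigs of islet cells from 2 NOD and 2 Tet2KO NOD pools were used. The authors deposited a table per library with, for each contig, its read and UMI counts (whole numbers), segment names, CDR3 and flags, per the file headers; contig length in bases, also deposited, was not used in a test. Cell Ranger 7.0.1 and the build GRCm38 (mm10) are named per the submitters' processing notes; for the V(D)J segment set no source used here gives a name. Segment names are closest matches, so D and N copies are uncertain.

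Groups follow the labels. Rearrangements or distinct pairs per segment were tested with edgeR 4.0.16 (quasi-likelihood; R 4.3.3), library size as the total with no further factor, Benjamini-Hochberg over all rows kept: at least 10 in at least 2 libraries for genotype, at least 50 in all for partners, with each library as a block. DESeq2 1.42.0 was an alternative. Single values per library used exact permutation tests (Python 3.11.15, scipy 1.17.1). The SE beside a fold change was derived from the F statistic and is approximate. TRAV families join all copies of a number. No doublet caller was run; pairs came from cells with 1 TRB. On data simulated from the fits, 2-fold changes were recovered in 53.3% (genotype), 32% (TRAV families) and 30.8% (TRB names) of cases. For 4-fold changes these were 92.6%, 65% and 77.2%. Of the calls, 2.36%, 11.1% and 4.94% were false at 2-fold and 4%, 2.99% and 2.53% at 4-fold. The simulations used the common dispersion of each fit, 0.00592 for genotype and 9.77e-05 for both partner fits. The partner rates thus hold for almost no spread between pools beyond counting.

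The members, lists and rules were chosen with earlier results of these data known. Segments named were the 6 TRAV families, 6 TRBV and 4 TRBJ of highest mean share with TRAJ18 and the 3 higher and 3 lower TRAV families of smallest unadjusted p; clones and shared sequences were the largest per library, those of 5 or more cells up to 10, and those in more than 1 library. Germline ends came from RefSeq GRCm38.p6, placed with up to 2 mismatches. Intervals (95%) and the 3 counts allowed by a count of 0 cover counting error only. Set numbers were not used to pair the libraries in the main fits. The deviations of same-numbered libraries correlated at r = -0.14 over 95 segments. With 2 libraries per genotype and small counts per segment, this cannot decide whether same-numbered sets were handled together.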

Additional observations from a re-analysis of the deposited data

How the results depend on the processing

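With few rearrangements per library, signs near 0 turned easily. None of the main tests called anything, and no alternative was run on the call of TRAV7D-2 among names as deposited. The TRAJ18 genotype log2 fold change, -0.03, was 0.0049 in the fit with a replicate block (set number), 0.032 with each cell counted and 0.039 with TRAV11 included, and ran from -0.45 to 0.31 when 1 library was left out. A crossed pairing of the sets, chosen after seeing the data, called 0 of 96 names. TRAV families gave 1 call with names as deposited (TRAV7D-2), 1 without the filter (TRAV2) and from 0 to 1 when 1 library was left out (TRAV21 without NOD 2). TRAV13 (0.01) was -0.077 with TMM, -0.073 with DESeq2, -0.0011 with 1 TRA per cell, -0.031 with TRAV11 included and from -0.14 to 0.32 without 1 library; TRAV5 ran from -0.14 to 0.18, TRAV12 from -0.34 to 0.063 and TRBV13-1 from -0.014 to 0.44 without 1 library. With each cell counted, TRBV5 was -0.10, TRBV12-2+TRBV13-2 0.11 and TRBJ2-5 0.018. The cause was not tested.

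Between genotypes, the share of pairs in 2 or more cells differed by 1.61 percentage points, by 6.80 with cells of over 1 TRB kept, by 4.92 by TRA alone, by 3.33 with 1 TRA per cell, by -4.34 at 3 or more cells and by -0.44 without shared barcodes. The 6.80 and the 4.92 include Tet2KO NOD 2 at 8 of 36 and 6 of 32, where the same cells can be counted more than once. The CDR3 length difference was 0 by medians, and J bases kept differed by -0.073 with each cell counted. Without 1 library these ran from -4.00 to 7.21 percentage points, from -0.0057 to 0.169 residues and from -0.236 to 0.684 bases. The share of TRAJ18 chains in cells with 2 TRA, left out library by library only after seeing the data, ran from -2.79 to 22.2 percentage points between genotypes and from -2.19 to 6.54 against other TRAJ. Numbers of 28 to 166 pairs per library limit all of these.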
